A study of Mus musculus with 4 samples.

Results

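Immediate early genes are the genes a cell transcribes first when a growth factor, a depolarization or a stress reaches it. The set described here held 10 of them, *Fos*, *Fosb*, *Fosl1*, *Jun*, *Junb*, *Egr1*, *Egr2*, *Ier2*, *Nr4a1* and *Dusp1*, chosen by gene name from 36499 genes and unnamed transcripts with a probe on the array. Each of the 10 was measured by 1 probe, and all 10 passed the filter on dim probes, so that none of the set was left out of a test. The cells were neural stem/progenitor cells (NSPCs), which grow as floating neurospheres, from mouse embryos of embryonic day 13.5, labelled Slc:ICR in both genotypes, either wild-type or Trp53-/- (lacking the gene for p53). All cultures grew in neurosphere medium with B-27 and the human recombinant growth factors EGF and FGF-basic, each at 20 ng/ml. Each of the 4 two-colour arrays set NSPCs treated with 20 µM PJ34, an inhibitor of poly(ADP-ribose) polymerases, in Cy5 against untreated NSPCs of the same genotype in Cy3, with 2 arrays per genotype. The Trp53-/- line came from heterozygous mice (CDB0001K), the duration of the treatment is not given for the arrays in the sources used here, and RNA was prepared independently for each replicate.

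As background, immediate early genes need no new protein for their induction: kinases of the ERK and stress pathways phosphorylate factors already bound at their promoters, such as the serum response factor with its ETS partners at CArG boxes and CREB at CRE sites. Fos and Jun family proteins then pair as AP-1, Egr proteins bind GC-rich sites, and Dusp1, a phosphatase, switches the kinases off again. EGF and FGF, which neurosphere medium supplies throughout, are themselves activators of the ERK pathway.

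Promoters are shown for 4 genes on which the results below turn: *Fos* and *Egr2*, which rose with PJ34 in wild-type cells, *Jun*, which had the widest gap between untreated genotypes, and *Nr4a1*, the gene that fell in both genotypes under the loess scaling used here and lay below the median of all genes under median centring. Each run is the 250 bases before a RefSeq transcript start on GRCm38.p6, read 5′ to 3′ on the gene's strand, with capitals marking a CRE core (TGACG), a CArG box, an ETS core (CCGGAA), an EGR site (GCGNGGGCG) or a TATA box (TATAAA) on either strand. *Fos* is at chr12:85473640-85473889 on the plus strand, *Egr2* (the third of its 5 listed starts, most of which overlap) at chr10:67537619-67537868 on the plus strand, *Jun* at chr4:95052223-95052472 on the minus strand and *Nr4a1* at chr15:101266596-101266845 on the plus strand.
Fos: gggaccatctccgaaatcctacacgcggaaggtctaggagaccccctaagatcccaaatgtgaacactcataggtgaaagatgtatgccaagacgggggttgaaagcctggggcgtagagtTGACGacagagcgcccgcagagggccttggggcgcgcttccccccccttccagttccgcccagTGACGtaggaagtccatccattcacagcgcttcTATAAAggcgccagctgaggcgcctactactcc
Egr2: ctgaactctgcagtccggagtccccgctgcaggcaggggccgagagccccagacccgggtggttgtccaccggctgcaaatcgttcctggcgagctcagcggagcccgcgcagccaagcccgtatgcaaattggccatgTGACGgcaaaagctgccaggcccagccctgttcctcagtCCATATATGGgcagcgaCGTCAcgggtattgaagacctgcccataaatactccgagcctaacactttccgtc
Jun: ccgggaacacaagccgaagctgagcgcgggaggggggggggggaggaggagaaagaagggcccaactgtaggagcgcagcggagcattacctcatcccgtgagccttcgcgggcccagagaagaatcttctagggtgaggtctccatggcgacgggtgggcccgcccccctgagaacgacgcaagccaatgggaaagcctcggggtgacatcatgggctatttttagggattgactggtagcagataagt
Nr4a1: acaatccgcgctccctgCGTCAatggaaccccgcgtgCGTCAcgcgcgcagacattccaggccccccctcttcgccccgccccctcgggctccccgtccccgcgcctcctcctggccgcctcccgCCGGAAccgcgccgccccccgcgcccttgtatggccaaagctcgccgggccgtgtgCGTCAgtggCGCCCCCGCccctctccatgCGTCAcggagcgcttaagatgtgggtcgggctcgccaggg
The reference table held promoters for 7 of the 10 genes (*Fos*, *Fosb*, *Jun*, *Junb*, *Egr2*, *Nr4a1* and *Dusp1*). A CRE core lay in this window in 6 of the 7, against 19.8% of 27025 genes in the same table, and *Nr4a1* held 4 of them. A CArG box lay in 1 of the 7, *Egr2*, against 1.62% of genes. An ETS core lay in 2 of 7 (*Egr2* and *Nr4a1*) against 13.6%. For *Egr2* it lay only before the listed start 2, which is not printed here. An EGR site lay in 2 of 7 (*Fosb* and *Nr4a1*) against 5.33%, and a TATA box in 1 of 7 (*Fos*) against 14.3%. The AP-1 site TGANTCA lay in 0 of 7, against 7.82% of genes. *Jun* held none of these letter strings in its window. These counts describe letters only, they were drawn from genes with 1 to 5 listed starts, and the searches overlap in part, since a full CRE holds the core on both strands. Bases farther from a start were not searched, so a site missing here may lie outside the window.

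On the arrays, 21505 to 24540 of 55681 probes were well above background in the control channel and 26081 to 27156 in the PJ34 channel, and the log2 ratios of the 2 replicates correlated across 20231 genes with r = 0.70 in wild-type and 0.64 in Trp53-/- cells. Of the 80 values that the 10 genes gave (4 arrays, 2 channels), 77 were well above background and 0 were saturated. The exceptions were *Junb* in the control channel of both wild-type arrays and *Fosl1* in the control channel of wild-type replicate 1. *Trp53* itself read 8.28 and 8.51 on the log2 scale in untreated wild-type and 7.56 and 7.82 in untreated Trp53-/- cells and stayed above background on all arrays; where its probe lies relative to the deleted part is not given, so it was not taken as a check of the labels. All 9 NSPC markers were above background in both channels of every array. Trp53-/- replicate 2 stood apart: its PJ34 channel held the Y-linked *Eif2s3y* and *Ddx3y* at log2 ratios of 4.22 and 3.12 while its control channel held neither above background, and *Xist* had a ratio of -1.39, so its 2 cultures differed in sex. In untreated cells both Y-linked genes were above background in wild-type and in neither Trp53-/- culture, so that sex and genotype cannot be told apart in the untreated comparison.

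The first comparison asked how PJ34 changed the 10 genes in wild-type NSPCs. *Fos*, *Egr1*, *Egr2* and *Fosl1* rose, by 1.33- to 1.54-fold, and *Nr4a1* fell by 1.35-fold under loess scaling (under median centring its log2 ratio of 0.17 lay below the median of all genes, 0.46). No gene of the set reached a 2-fold change. "Rose" and "fell" mean here that limma's p and Storey's q were both below 0.05, a rule that 13.6% of all 20231 genes met in the upward direction and 11.3% in the downward direction, against 4 and 1 of the 10. With a 2-fold change required as well, 0.287% of genes were higher and 0.213% lower, and 0 of the 10 were either.

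*Fos*, the best known member of AP-1, had log2 ratios of 0.73 (wild-type replicate 1) and 0.48 (replicate 2), a mean of 0.61 ± 0.17 (SD, n = 2) or 1.52-fold (q = 0.00166). Its probe, at chr12:86817900-86817959 in the mm9 coordinates of the files, was printed in 10 spots, whose ratios had an SD of 0.078 and 0.11 within these arrays. The gap between the 2 arrays was thus wider than the SD over spots of either. *Egr1*, a zinc finger factor of the serum response (probe at chr18:35024395-35024454), had ratios of 0.58 and 0.67, a mean of 0.63 ± 0.059 (SD, n = 2) or 1.54-fold (q = 0.000926). *Egr2*, its relative known for hindbrain segments and Schwann cells (probe at chr10:67004798-67004857), had 0.53 and 0.65, a mean of 0.59 ± 0.086 (SD, n = 2) or 1.5-fold (q = 0.00187). Both arrays lay above a ratio of 1 for each of these 3 genes.

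*Fosl1*, which encodes the Fos family protein Fra-1 and is induced later and more lastingly than *Fos*, had ratios of 0.30 and 0.53, a mean of 0.41 ± 0.16 (SD, n = 2) or 1.33-fold (q = 0.00745). Its call in wild-type cells was lost without wild-type replicate 2 (0.30, q = 0.118). *Nr4a1*, an orphan nuclear receptor (probe at chr15:101105071-101105130), went the other way under loess scaling, with -0.43 on both arrays (q = 0.00662). The remaining genes did not pass. *Fosb* had 0.27 and 0.011, *Jun* 0.063 and 0.019, *Ier2* 0.059 and -0.016, and *Dusp1* -0.038 and -0.11. For *Junb*, whose control signal was not well above background on either wild-type array, the ratios were 0.24 and 0.029. Their mean was 0.13 (limma, q = 0.187, interval -0.075 to 0.34), so its direction is not settled. Setting the control at the dimmest signal above background gave 1.07-fold, which was not itself tested. The set's median log2 ratio was 0.14, beside 0.029 over all genes tested, and 7 of the 10 lay above 0 on both arrays, as did 39.4% of all genes.

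Because the untreated sample was labelled with Cy3 on every array, a dye effect of a probe cannot be told apart from PJ34 within a genotype. The scaling also matters: loess sets most genes near a ratio of 1, whereas centring each array on the median of all probes put the median of tested genes at 0.46 in wild-type and 0.63 in Trp53-/- cells. Relative to that shift, *Fos*, *Egr1* and *Egr2* stood 0.64, 0.83 and 0.59 above it in wild-type cells, *Fosl1* 0.19 above it and *Nr4a1* 0.28 below it (a difference of -0.28).

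**Figure D1:**
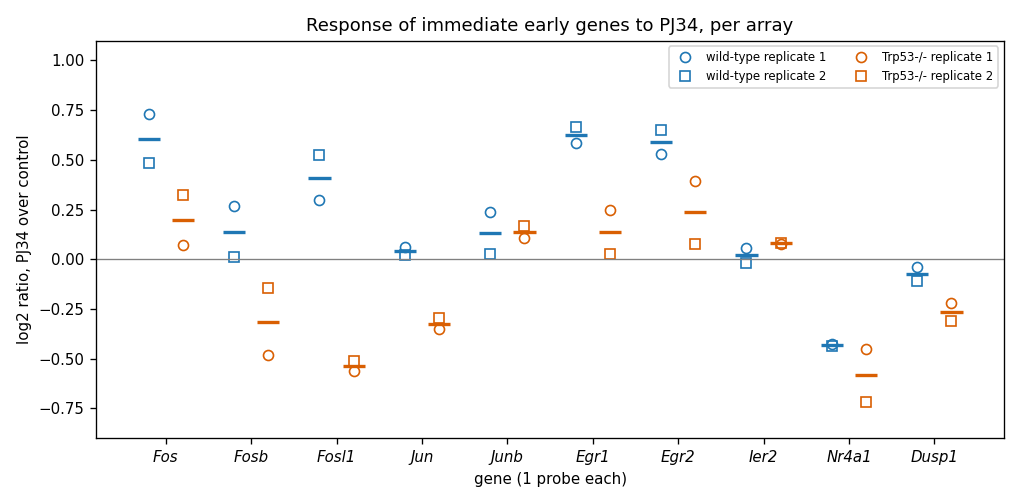
Log2 ratio of PJ34-treated over untreated cells (y axis) for the 10 genes (x axis), with 1 point per array and a bar at the mean of the 2 arrays of a genotype, after loess scaling. In wild-type cells *Fos*, *Egr1* and *Egr2* lie between 0.48 and 0.73, while in Trp53-/- cells *Fosl1*, *Jun*, *Fosb*, *Nr4a1* and *Dusp1* lie below 0, all of which but *Jun* also lay below the median of all genes under median centring.

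In Trp53-/- NSPCs, no gene of the set rose (limma, 1 at an unadjusted p below 0.05, *Egr2*) and 5 fell under loess scaling: *Nr4a1*, *Fosl1*, *Jun*, *Fosb* and *Dusp1*, by 1.20- to 1.5-fold, of which all but *Jun* also lay below the median of all genes under median centring. In all, 12.8% of genes rose and 10.5% fell in this comparison, and 0.089% and 0.272% did so by more than 2-fold, among them 0 of the 10. Under median centring the median of all genes was 0.63, and relative to it *Fosl1* stood at -0.75, *Fosb* at -0.51, *Nr4a1* at -0.37, *Dusp1* at -0.28 and *Jun* at 0.10. *Nr4a1* had log2 ratios of -0.45 and -0.72, a mean of -0.58 ± 0.19 (SD, n = 2, q = 0.00211). *Fosl1* had -0.56 and -0.51, a mean of -0.54 ± 0.033 (SD, n = 2, q = 0.00264). *Jun*, the partner of Fos proteins and a target of JNK, had -0.35 and -0.30, a mean of -0.32 ± 0.039 (SD, n = 2, q = 0.0165). The arrays of these 3 genes were all below 0.

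*Fosb*, best known for its stable splice form in neurons, had -0.48 and -0.15 (q = 0.0396), and *Dusp1* -0.22 and -0.31 (q = 0.0355). The 3 genes with the strongest response in wild-type cells did not pass here: *Fos* had 0.073 and 0.32 (q = 0.108), *Egr1* 0.25 and 0.027 (q = 0.174) and *Egr2* 0.40 and 0.077 (q = 0.0719). All of these were above 0, and replicates 1 and 2 were far apart. Under median centring *Fos*, *Egr1* and *Egr2* stood 0.26, 0.47 and 0.33 above the median of all genes in Trp53-/- cells. They passed p and q there, as did 67.6% of all genes in the upward direction. *Junb* had 0.11 and 0.17, and *Ier2*, a small protein of the early serum response, 0.078 and 0.081. The set's median was -0.092, beside 0.033 over all genes. Glial markers moved on the same arrays: of 5 astrocyte markers 3 rose and 1 fell, and of 6 oligodendrocyte markers 4 fell. *S100b* had -0.77 and -0.48 (q = 0.00177), *Mbp* -0.39 and -0.32 (q = 0.0209), and *Gfap* rose on replicate 2 with 1.62 but stood at -0.00018 on replicate 1 (q = 0.0336). Their part in the fall of the 5 genes was not tested. In wild-type cells 0 of 5 astrocyte markers passed and 2 of 6 oligodendrocyte markers fell, and of the NSPC markers *Msi1* rose (0.39 and 0.59, q = 0.00295) and *Hes1* fell (-0.41 and -0.32, q = 0.0136).

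The count of falling genes depended on single arrays. Without Trp53-/- replicate 2, whose cultures differed in sex, *Fosl1* alone of the 5 still passed (-0.56, q = 0.0287), *Fosb* stood at -0.48 (q = 0.053) and *Nr4a1* at -0.45 (q = 0.0549). Without Trp53-/- replicate 1, *Fosl1* (-0.51, q = 0.0267) and *Nr4a1* (-0.72, q = 0.00428) passed. With either array left out, the other stands alone and is taken to vary like the wild-type arrays. The share of all genes that fell was also smaller in both of these fits.

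Whether the response to PJ34 differed between the genotypes was tested by subtracting the Trp53-/- log2 ratio from the wild-type one. *Fosl1* alone passed, with p and q below 0.05: it had gone up in wild-type and down in Trp53-/- cells, and the difference was 0.95 on the log2 scale, or 1.93-fold (95% interval 0.65 to 1.25, q = 0.0072). The rule was met in this direction by 1.27% of genes and in the other by 0.47%. With a 2-fold difference required, 0.435% and 0.0346% of genes passed and 0 of the 10. The difference for *Fosl1* was 0.92 (q = 0.0128) without Trp53-/- replicate 1 and 0.97 (q = 0.0179) without replicate 2, and 0.83 (q = 0.00316) and 1.06 (q = 0.000162) without wild-type replicates 2 and 1. It rests on a dim probe (chr19:5455496-5455555), 35.3 to 161 units above local background, which in wild-type replicate 1 was not well above background in the control channel. Under median centring it was 0.77 (q = 0.266), against a median of all genes of -0.14. With the scanner software's own values it was 1.87 (unadjusted p = 0.000183) and did not pass (q = 0.163), and 0 of 20231 genes passed under that setting. Of the glial markers *S100b* also passed this test, with a difference of 0.69 (q = 0.0342), and its part in that of *Fosl1* was not tested.

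5 further genes had an unadjusted p below 0.05 for the difference, none of which passed q: *Egr1* 0.49 (95% interval 0.19 to 0.79, q = 0.0897), *Fosb* 0.45 (0.11 to 0.80, q = 0.153), *Fos* 0.41 (0.084 to 0.73, q = 0.166), *Jun* 0.36 (0.088 to 0.64, q = 0.153) and *Egr2* 0.35 (0.031 to 0.67, q = 0.218). The intervals for *Nr4a1* (-0.15 to 0.45), *Dusp1* (-0.09 to 0.47), *Junb* (-0.30 to 0.29) and *Ier2* (-0.34 to 0.22) spanned 0. Both wild-type arrays lay above both Trp53-/- arrays for 8 of the 10 genes, against 21.3% of all genes, and below them for 1, *Ier2*, against 23.9%. The median difference of the set was 0.36, beside -0.0067 over all genes. Under median centring the differences were 0.19 for *Egr1*, 0.25 for *Fosb*, 0.21 for *Fos*, 0.0089 for *Jun* and 0.085 for *Egr2*. The median of all genes was then -0.14.

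In untreated cells, the mean of each of the 10 genes was above its wild-type mean in Trp53-/- NSPCs. For the 8 genes above background on every array, both Trp53-/- arrays lay above both wild-type arrays, an arrangement that 28.8% of all 17250 genes tested showed (the reverse one was shown by 28.4% of genes and 0 of the 10). *Junb* and *Fosl1* had the same order, but they passed the filter on dim probes through the Trp53-/- arrays alone and are left out of this count. Before scaling, the control signals of *Ier2* and *Dusp1* overlapped between genotypes, so their order rests on the scaling. *Ier2* had 145 and 80.6 units over local background in wild-type and 120 and 135 in Trp53-/- cells. *Dusp1* had 219 and 75.6 against 182 and 242. *Jun* (3.18-fold) and *Egr2* (2.13-fold) passed p, q and the 2-fold limit, which 2.28% of genes did in this direction and 2.41% in the other. *Egr1* (1.78-fold) and *Fosb* (1.62-fold) passed p and q, as did 4.68% of genes in this direction and 4.7% in the other. The median difference was 0.66 on the log2 scale, over the 10 genes as over those 8, beside 0.013 over all genes. In bulk RNA, fewer cells that express a gene and less RNA per cell cannot be told apart.

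*Jun*, whose probe (chr4:94716928-94716987) was far above background on every array, had normalized control intensities of 12.50 and 13.11 in wild-type and of 14.48 and 14.46 in Trp53-/- cells on the log2 scale. The difference was 1.67 (95% interval 1.08 to 2.25, q = 0.0186), wider than the gap between the arrays of either genotype. *Egr2* had 7.92 and 7.80 against 9.06 and 8.85, a difference of 1.09 (0.65 to 1.53, q = 0.0229). *Egr1* had 12.004 and 11.65 against 12.61 and 12.71, a difference of 0.83 (0.35 to 1.32, q = 0.042). *Fosb* (probe at chr7:19888168-19888227) had 6.81 and 6.94 against 7.66 and 7.49, a difference of 0.70 (0.27 to 1.13, q = 0.0477). These 4 genes had groups that lay apart from each other by more than the gap within a group.

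*Fosl1* had 6.44 and 7.07 against 7.62 and 7.70, a difference of 0.90 (q = 0.0535), and its 2 wild-type arrays differed more than its 2 Trp53-/- arrays. *Nr4a1* had 10.03 and 10.40 against 10.86 and 10.84, a difference of 0.63 (q = 0.07), and *Fos* 7.97 and 8.24 against 8.76 and 8.53, a difference of 0.53 (q = 0.0912). *Dusp1* had 8.22 and 7.60 against 8.23 and 8.53, a difference of 0.47 (q = 0.174), with wild-type replicate 1 and Trp53-/- replicate 1 almost level. *Ier2* had 7.73 and 7.69 against 7.79 and 7.93, a difference of 0.14 (q = 0.363). *Junb*, whose wild-type signal was not well above background, had a difference of 0.19 (limma, q = 0.309, interval -0.25 to 0.63), so its direction is not settled. Setting the wild-type signal at the dimmest one above background gave 1.12-fold, which was not itself tested. Before scaling, its control signals over local background were 28.55 and 25.30 units in wild-type and 25.95 and 24.17 in Trp53-/- cells, and thus not higher in the latter. Probes differ in affinity, so these levels are compared within a gene and not between genes.

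Alternatives of filter, probe rule, adjustment and replicate block, and a joint model of both channels, could not move these estimates, each read from 1 probe. Those that changed the background, the scaling or the arrays kept the direction of the untreated differences of the 8 genes above background on every array. *Junb* and *Fosl1* kept theirs too, but they passed the filter on dim probes through the Trp53-/- arrays alone and are not counted. The calls did not hold in all of these alternatives. Leaving out either Trp53-/- array ended all 4: *Jun* then stood at 1.66 (q = 0.0882) or 1.67 (q = 0.132) and *Egr2* at 0.99 (q = 0.255) or 1.19 (q = 0.304). Median centring, under which 0 of 17250 genes passed, gave *Jun* 1.73 (q = 0.0517). Markers of more mature glia moved with this comparison. The mean log2 control level of the 5 astrocyte markers was 7.78 and 8.28 in wild-type and 9.08 and 9.05 in Trp53-/- cells, with 4 of the 5 higher and 0 lower at p and q below 0.05. *S100b* was higher by 1.89 and *Gfap*, which was not well above background in wild-type replicate 1, by 2.38. The oligodendrocyte marker *Mbp* had control levels of 6.70 and 6.94 in wild-type against 8.83 and 8.78 in Trp53-/- cells, higher by 1.98, and over the 6 markers of that list 2 were higher and 1 lower. The 9 NSPC markers had means of 11.44 and 11.22 against 11.37 and 11.27, of which *Msi1* was lower by 0.96 (a difference of -0.96, q = 0.0279), *Hes1* had a difference of -0.0082, and 5 of 9 had a difference below 0. Among 6 neuronal markers 1 was higher, *Rbfox3* (1.24, q = 0.0186), and 2 were lower. Of 6 microglial markers 2 or 3 were above background in the control channels, of 5 endothelial markers 1 or 2, and of 6 mesenchymal markers 0. The endothelial marker *Kdr* was lower in Trp53-/- cells (-1.34, q = 0.0156), and the microglial markers *Csf1r* (-0.82, q = 0.0515) and *Itgam* (-0.68, q = 0.0555) did not pass. The mesenchymal marker *Col1a2* was tested for the ratio only, with 0.16 in wild-type and 0.076 in Trp53-/- cells, and passed in neither. The part of these markers and of sex in the differences of the 10 genes was not tested.

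**Figure D2:**
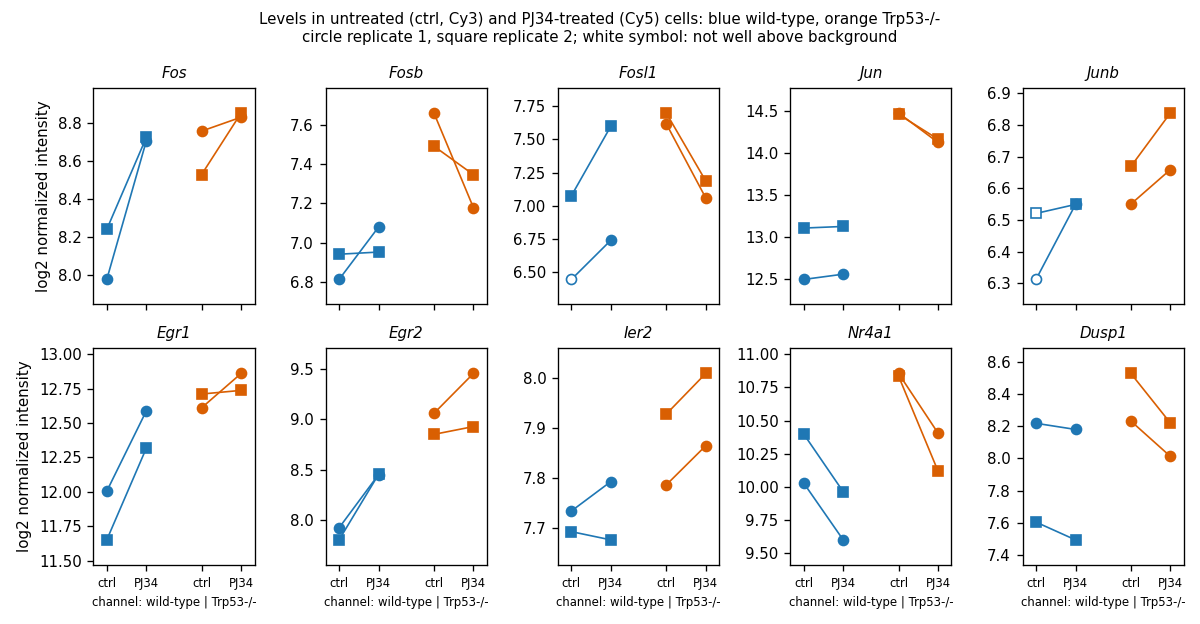
Normalized log2 intensity (y axis, own range per gene) of the 10 genes in untreated (ctrl) and PJ34-treated cells (x axis) of each genotype, 1 line per array, white symbols where the signal was not well above background. Untreated Trp53-/- arrays lie above untreated wild-type arrays in all 10 panels, and in the PJ34 channel *Fosl1* and *Dusp1* overlap between genotypes. *Junb* and *Fosl1* passed the filter on untreated signals through the Trp53-/- arrays alone.

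In PJ34-treated cells, both Trp53-/- arrays still lay above both wild-type arrays for 8 of the 10 genes, against 28.6% of all genes. Among these 8 is *Junb*, which passed the filter on untreated signals through the Trp53-/- arrays alone. The exceptions were *Fosl1*, with 6.74 and 7.60 in wild-type and 7.06 and 7.19 in Trp53-/- cells, and *Dusp1*, with 8.18 and 7.49 against 8.01 and 8.22. For *Fosl1*, the wild-type values had gone up and the Trp53-/- values down until they overlapped. *Fos* had 8.70 and 8.72 against 8.83 and 8.85, a far narrower gap than in untreated cells. *Jun* kept a wide one, with 12.56 and 13.13 against 14.12 and 14.16. The response to PJ34 and the untreated level come from the same Cy3 signals, so a gene whose untreated signal is high has, by that alone, a lower ratio, and the 2 genotype differences of a gene are no independent measurements.

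**Figure D3:**
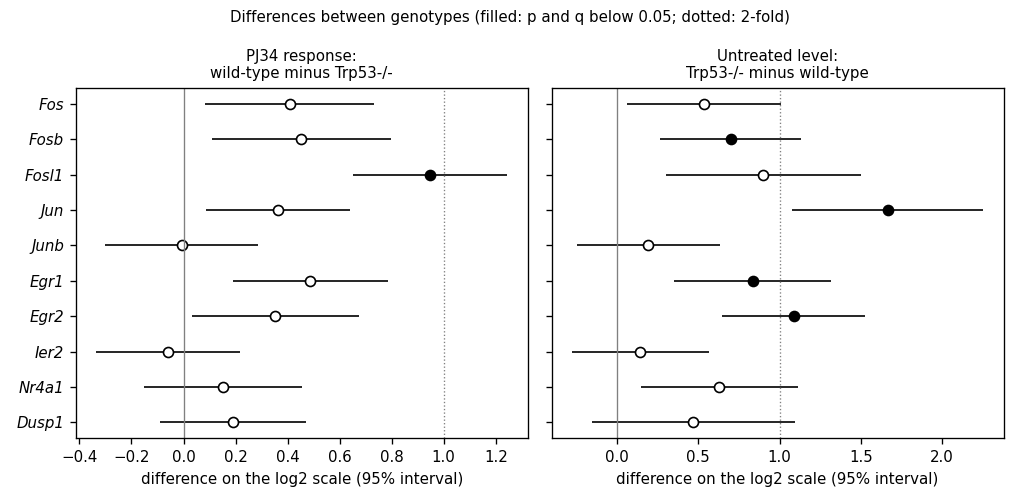
Differences between genotypes on the log2 scale (x axis) for the 10 genes (y axis), with 95% intervals from limma: left, the PJ34 response, wild-type minus Trp53-/-; right, the untreated level, Trp53-/- minus wild-type. Filled points passed p and q below 0.05: *Fosl1* at 0.95 on the left, and *Jun*, *Egr2*, *Egr1* and *Fosb* on the right.

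Other genes of the pathway were read from lists chosen with earlier results of these data known. Of 40 other immediate early genes, 36 were tested for the ratio (*Egr3*, *Nr4a3*, *Zfp36* and *Ptgs2* were too dim). In wild-type cells 6 rose and 3 fell, in Trp53-/- cells 8 rose and 9 fell, and for the difference 2 passed. The list's medians were -0.044 and -0.07, below the 0.029 and 0.033 of all genes. In untreated cells 5 of 35 were higher in Trp53-/- cells and 0 lower (limma, 1 lower at an unadjusted p below 0.05), and 3 passed the 2-fold limit. *Hbegf*, an EGF receptor ligand, had 9.95 and 10.80 in wild-type and 12.34 and 12.50 in Trp53-/- cells, a difference of 2.05 (q = 0.0186). *Fosl2*, the Fos family gene for Fra-2, had 8.29 and 7.79 against 9.96 and 9.79, a difference of 1.84 (q = 0.0141). *Egr4* had 9.15 and 9.45 against 11.00 and 10.78, a difference of 1.60 (q = 0.0141).

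*Fosl2* had PJ34 ratios of -0.13 and 0.12 in wild-type and of -0.73 and -0.63 in Trp53-/- cells, a difference in response of 0.67 (q = 0.0344). This is the same order of the genotypes as for *Fosl1*, though in wild-type cells *Fosl2* did not pass (mean -0.0049). Named after their values were seen, 4 more genes of this list stood out in wild-type cells. *Plk2*, a polo-like kinase, had ratios of 1.02 and 0.97 (q = 0.000911), and *Klf4*, a pluripotency factor, 1.05 and 0.88 (q = 0.000207). Neither passed the test of the difference in response, which *Fosl2* and *Btg2* alone of this list did. *Btg2*, an antiproliferative gene and a known p53 target, had 0.86 and 0.51 in wild-type against -0.49 and -0.11 in Trp53-/- cells, a difference of 0.98 (q = 0.0171). *Jund* had 0.81 and 0.35 against -0.19 and 0.099, a difference of 0.63 (q = 0.0882) that did not pass. Of 13 partners and co-regulators of AP-1 and Egr proteins, 12 were tested, of which 1 rose and 1 fell in wild-type and 2 rose and 3 fell in Trp53-/- cells. *Fosl2* and *Jund* are in this list and in that of other immediate early genes, so the counts of the 2 lists overlap.

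Upstream, none of the 30 genes that signal to immediate early genes (receptors, Ras, Raf, MAP kinases, ribosomal S6 kinases and their factors) passed the test of the difference in response (limma, 5 at an unadjusted p below 0.05). In wild-type cells 4 rose and 4 fell, and in Trp53-/- cells 4 rose and 2 fell. In untreated cells 1 of 29 passed: *Rps6ka1*, the kinase RSK1 downstream of ERK, had 9.94 and 10.701 in wild-type and 12.16 and 11.997 in Trp53-/- cells, a difference of 1.76 (q = 0.0219). Of 14 ERK feedback genes, 5 rose and 1 fell in wild-type cells and 2 rose and 1 fell in Trp53-/- cells, and 0 passed for the difference (limma, 4 at an unadjusted p below 0.05). The list's medians were 0.23 and 0.063. *Spry2*, an inhibitor of receptor signalling to Ras, had 0.49 and 0.25 in wild-type (q = 0.0122) and 0.06 and 0.009 in Trp53-/- cells, and *Il17rd*, another FGF feedback inhibitor, had -0.11 and -0.28 against 0.01 and 0.33 and passed in neither.

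Downstream, 8 of 14 listed AP-1 target genes were tested for the ratio. In Trp53-/- cells 5 fell and 0 rose under loess scaling, in wild-type cells 1 rose and 2 fell, and the list's medians were -0.32 and -0.022. In untreated cells 4 of 7 were higher in Trp53-/- cells, 3 of them past 2-fold. *Plaur*, the urokinase receptor, had 6.88 and 7.23 against 8.95 and 8.75 (a difference of 1.79, q = 0.0127), *Timp1*, an inhibitor of matrix proteases, 9.86 and 10.42 against 11.86 and 11.96 (1.77, q = 0.0156), and *Vegfa*, the angiogenic growth factor, 8.81 and 8.72 against 10.37 and 10.36 (1.60, q = 0.0106). The response of *Plaur* to PJ34 also differed, with ratios of -0.35 and -0.022 in wild-type and -0.85 and -0.84 in Trp53-/- cells (a difference of 0.66, q = 0.0426). These genes are known to answer to other factors too, and the lists share the Cy3 signals described above.

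**Figure D4:**
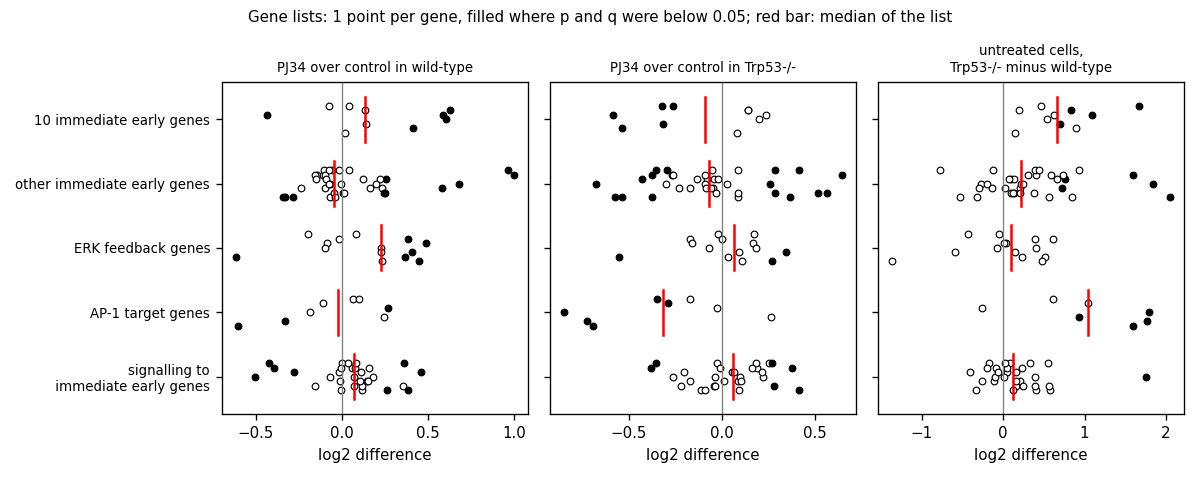
Log2 differences (x axis) of the 10 genes and of 4 lists of pathway genes (y axis) for PJ34 over control in each genotype and for untreated cells, 1 point per gene, filled where p and q were below 0.05, with a red bar at the list's median, after loess scaling. In untreated cells the medians of the 10 genes and of the AP-1 targets are 0.66 and 1.04, and in Trp53-/- cells treated with PJ34 they are -0.092 and -0.32, while under median centring, relative to the median of all genes, *Jun* alone of the 5 falling genes turned.

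Across the 8 channels, the genes whose level followed the mean of 8 of the 10 genes most closely (*Fosl1* and *Junb* were left out as too dim) were, among 15423 genes above background everywhere, *9630041G16Rik* (r = 0.995), *Shank3* (0.995), *Adcy5* (0.995), the transcript ENSMUST00000104974 (0.992) and *Cdc42ep3* (0.989). These are descriptions over 8 channels that share 4 arrays and 2 genotypes. The mean itself was mostly a gap between genotypes, at -0.42 and -0.39 in untreated wild-type against 0.36 and 0.35 in untreated Trp53-/- cells. The 8 members followed it less closely, from *Jun* (r = 0.94, rank 215) to *Dusp1* (r = 0.57, rank 3855). Among the members themselves *Egr1* and *Egr2* were the closest pair (r = 0.92), whereas *Nr4a1* had r = 0.043 with *Fos* and 0.16 with *Egr1*.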

How the data were processed

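Total RNA of NSPCs was hybridised by the authors to Agilent SurePrint G3 Mouse GE 8x60K arrays, and Agilent Feature Extraction 10.7.3.1 wrote the scanner files (submitters' processing notes). The deposited intensity columns (mean signal and median background of each channel) were used, and the deposited log10 ratios and processed signals of the scanner software served as an alternative. The series value table was not used, since its 4 columns of per-sample values have no stated scale.

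Intensities were background corrected with limma 3.58.1 in R 4.3.3 (normexp, offset 50) and loess-normalized within each array (span 0.3), with control and outlier spots at weight 0. Replicate spots were averaged per probe. The filter kept probes (48.6% of 55681) that, in either genotype, had at least 1 channel called well above background on each array (for untreated cells, the control channel), and the brightest kept probe stood for a gene. Ratios were fitted with lmFit and eBayes, with 1 mean per genotype (2 residual degrees of freedom, 10.3 after moderation). Untreated cells were compared on the Cy3 channel after loess and Aquantile. Calls needed p and Storey's q below 0.05, with or without a change over 2-fold. The fits of the ratios and of the untreated levels were tried on simulated normalized values. The normalization, the alternatives and the promoter search were not.

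The 10 members and all lists were chosen with earlier results of these data known. Named were all 10 members, each listed gene called past 2-fold in any comparison or, where a list had none, its 2 genes with the smallest p for the genotype difference in response, and the 5 genes most like the members' mean. Alternatives changed the background, scaling, filter, probe rule, adjustment, replicate block and arrays left out. Replicates 1 and 2 of the genotypes share only a number. Array number, 2 per group, limits the precision. One listed marker gene and its list's mean are not reported here.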

Additional observations from a re-analysis of the deposited data

Results flagged for a closer look

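*Fosl1* passed the test of a different response to PJ34 in the 2 genotypes under loess scaling. Its wild-type minus Trp53-/- difference in log2 ratio was 0.95 (limma, q = 0.0072). It did not pass under median centring (0.77, q = 0.266) or with the scanner software's values (1.87, q = 0.163), and its probe was dim. Its ratios were above 0 in 2 of 2 wild-type arrays and below 0 in 2 of 2 Trp53-/- arrays. *Fosb* and *Jun* also had both wild-type arrays above and both Trp53-/- arrays below a ratio of 1, with mean differences of 0.45 and 0.36. The test of the difference itself gave q = 0.153 for each, so neither passed. Under median centring, where the median of all genes in Trp53-/- cells was 0.63, *Fosb* stood 0.51 below it (-0.51) and *Jun* 0.10 above it.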

How the results depend on the processing

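With 2 arrays per genotype, calls move easily. Of the results recomputed, 140 of 148 for PJ34 in wild-type, 122 of 148 for PJ34 in Trp53-/-, 127 of 138 for the difference in response and 116 of 148 for untreated cells kept direction and side of the threshold.

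Counts of the 10 genes that changed by over 1.5 times are these. Median centring gave 3 genes past 2-fold in wild-type and 1 in Trp53-/- cells, 0 lower in wild-type, 5 higher and 0 lower in Trp53-/- cells (with 59.1% of all genes higher in wild-type and 67.6% in Trp53-/- cells, and 1180 and 3407 of 20231 past 2-fold), 0 for the difference, and 0 for untreated cells with or without the 2-fold limit. It moved the median of all genes to 0.46 in wild-type and 0.63 in Trp53-/- cells and, by the sign alone, turned *Nr4a1* (0.17) and *Dusp1* (0.32) in wild-type cells, *Fosb* (0.11), *Jun* (0.73), *Nr4a1* (0.25) and *Dusp1* (0.35) in Trp53-/- cells, and *Nr4a1* (-0.080) and *Dusp1* (-0.030) for the difference. Relative to that median, of the genes lower in Trp53-/- cells *Jun* alone turned. No background correction, or an offset of 16, gave 1 gene (*Fosl1*) past 2-fold for the difference. Of all 20231 genes, 94 and 37 did so in that direction. The scanner software's values gave 2 lower in Trp53-/- cells, against 2.86% of all genes, and 0 for the difference (*Fosl1* 1.87, q = 0.163). Without the filter, 3 were lower in Trp53-/- and 2 higher in untreated cells, against 5.68% and 1.47% of all genes. Benjamini-Hochberg adjustment also gave 3 and 2, against 7.16% and 1.94%. The strict filter left *Fosl1* out, hence 0 for the difference. *Ier2* in wild-type cells turned without background correction (-0.0033), with the scanner's values (-0.042) and without wild-type replicate 1, with a range of -0.016 to 0.059 when 1 array was left out. *Junb* for the difference turned to 0.14 without background correction, 0.0073 with an offset of 16, 0.42 with the scanner's values, and ranged from -0.11 to 0.098 when 1 array was left out (0.098 without wild-type replicate 2 and 0.024 without Trp53-/- replicate 2). The cause was not tested.

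Leaving out 1 array at a time gave 3 to 4 genes higher in wild-type cells, 1 to 5 lower in Trp53-/- cells, 0 to 1 past 2-fold for the difference, and, for untreated cells, 0 to 3 past 2-fold and 0 to 8 higher. Of all genes, 20.2% or 25.5% were higher in untreated Trp53-/- cells without a wild-type array and 0.365% or 0.168% without a Trp53-/- array. Same-numbered arrays correlated with -0.18 in log2 ratio and 0.081 in control level over their deviations, so the numbers were not taken as pairs. With the replicate block, 4 rose and 1 fell in wild-type, 4 fell in Trp53-/- cells, 1 passed for the difference and 5 for untreated cells. Of all genes, 11.9% rose and 9.81% fell in wild-type and 9.44% fell in Trp53-/- cells. For the difference 1.94% were higher, and for untreated cells 6.92%. A crossed pairing, chosen after seeing the data, gave 1 higher and 5 lower in Trp53-/- cells and 3 for the difference. It also raised the shares of all genes, to 17.8% higher and 14% lower in Trp53-/- cells. For the difference they were 3.56% higher and 2.03% lower. Signal over background limits *Junb*, *Fosl1* and *Fosb*, the dimmest probes of the 10.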
